A study of Drosophila melanogaster with 3 samples.

Results

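The 36 segmentation and homeotic genes described here are the fly genes that divide the embryo into segments and give each segment its identity, taken as a named list out of 13968 protein-coding genes. A gene was said to have a bound promoter when the summit of a thresholded region of tagged chiffon lay within 500 bp of any of its transcription start sites (TSSs). Regions in the introns of these genes and within 20 kb of them were described as well. The samples were 3 biological replicates of 1 group: mixed-sex whole embryos of Drosophila melanogaster, aged 0 to 24 h, of the transgenic strain chif-RB-GFP. These flies stably carry a fusion of eGFP to the C-terminus of chif (noted as chif-RB for replicate 1 and as chif for replicates 2 and 3), and chromatin sonicated to between 200 and 800 bp was precipitated with an antibody against GFP. There was no second genotype, treatment or age. No library from untagged flies was used here, so recovery of open chromatin and binding of chiffon cannot be told apart. Whole embryos of all stages were mixed, so a region cannot be assigned to the cells in which a segmentation gene is active or silent.

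Segmentation runs as a cascade. Maternal products such as the bicoid protein set up gradients along the egg, gap genes divide it into broad domains, pair-rule genes turn these into stripes, and segment polarity genes fix the borders of each segment. Homeotic genes, gathered in the Antennapedia and bithorax complexes, then give the segments their identity, and Polycomb group proteins keep them silent elsewhere through Polycomb response elements that often lie far from the promoters. Chiffon is related to Dbf4, the activating partner of the replication kinase Cdc7, and a separate part of its product takes part in a complex with the acetyltransferase Gcn5.

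The deposited lists hold 1 line per region with its summit and a signal given by the authors' caller, and no reads, so the depth of each library is unknown. The thresholded list (5035 regions, signal 106.2 to 3635) was made by the authors from all 3 replicates, and each replicate also has its own list of 30000 regions that reaches far into weak signal. Ranks count down from 1, the region of highest signal, and are the form in which the replicates are set side by side, since all 3 lists are of equal length. The 5035 regions of highest signal of a replicate are called its top regions below, and a thresholded region is said to be backed by a replicate when it holds a top summit of it. All coordinates are 1-based and on dm6, and strand refers to the gene. No test was made, because the samples form a single group, and counts over the 36 genes are set beside the same counts over all protein-coding genes. Counts within a role or another gene list have the same shares of all genes as their background.

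Thresholded chif-eGFP regions were found at the promoters of the segmentation and homeotic genes about as often as at other genes. Most of those promoter regions, however, were weak and held no summit of replicate 2. Regions inside the genes and in the 20 kb around them were more frequent per length than in the genome as a whole, and most of them lay away from any TSS. The strongest were at the promoter of Pal1 19406 bp upstream of eve, between slp1 and slp2, downstream of abd-A and at the promoter of bcd.

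The DNA under the promoter summits of bcd, lab, oc and ems is shown first, because these are the strongest promoter regions of this gene set whose windows are free of annotated exons and hold a match to a motif. Each line gives the plus strand centred on the summit, from the RefSeq copy of the Release 6 genome. Capitals mark exact matches, on either strand, to 8 motifs: GAGAG (GAGA factor), GCCAT (the core of the Pho site), CAGGTAG (Zelda), TATCGATA (the DRE), GGTCACAC (the core of Motif 1), TAATTA (homeodomain proteins), TAATCC (Bicoid) and TTTATG (Caudal). None of these motifs contains another.
bcd promoter, 3R:6759618-6759738: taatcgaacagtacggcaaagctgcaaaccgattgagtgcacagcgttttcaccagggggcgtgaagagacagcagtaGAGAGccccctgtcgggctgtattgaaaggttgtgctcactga
lab outer promoter, 3R:6678650-6678770: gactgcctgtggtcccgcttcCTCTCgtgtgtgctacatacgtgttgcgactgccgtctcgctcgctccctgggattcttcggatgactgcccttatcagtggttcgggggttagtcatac
oc promoter, X:8650815-8650935: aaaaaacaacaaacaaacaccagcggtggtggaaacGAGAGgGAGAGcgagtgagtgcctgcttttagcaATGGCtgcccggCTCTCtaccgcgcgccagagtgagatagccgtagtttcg
ems promoter, 3R:13901668-13901788: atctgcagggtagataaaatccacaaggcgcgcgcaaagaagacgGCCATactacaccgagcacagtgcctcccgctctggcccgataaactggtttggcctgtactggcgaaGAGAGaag

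The next set shows 5 regions that lie away from promoters, chosen from the stronger ones of the pair-rule and homeotic genes because their windows hold matches. Regions stronger than those upstream of abd-A and of Ubx were passed over. Among these, the strongest of odd, the one between ftz and Antp, another Antp intron and one just downstream of slp1 held no match. Those downstream of opa and of Abd-B held some. The windows printed here therefore do not show how common the motifs are. The window between slp1 and slp2 holds GGTCACAC 2 times, and the windows upstream of abd-A and of Ubx each hold GCCAT 2 times. The window downstream of abd-A holds CAGGTAG, read on the minus strand.
between slp1 and slp2, 2L:3832463-3832583: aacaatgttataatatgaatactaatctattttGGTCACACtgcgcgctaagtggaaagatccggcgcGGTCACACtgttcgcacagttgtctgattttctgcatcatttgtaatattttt
downstream of abd-A, 3R:16798822-16798942: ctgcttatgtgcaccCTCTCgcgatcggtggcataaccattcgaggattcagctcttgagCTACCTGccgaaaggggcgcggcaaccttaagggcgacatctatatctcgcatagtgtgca
upstream of abd-A, 3R:16834766-16834886: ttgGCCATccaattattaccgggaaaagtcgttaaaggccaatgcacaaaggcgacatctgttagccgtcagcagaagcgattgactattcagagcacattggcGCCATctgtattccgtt
upstream of Ubx, 3R:16748682-16748802: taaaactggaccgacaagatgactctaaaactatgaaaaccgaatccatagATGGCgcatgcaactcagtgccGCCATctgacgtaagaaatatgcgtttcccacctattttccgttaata
Antp intron, 3R:6914498-6914618: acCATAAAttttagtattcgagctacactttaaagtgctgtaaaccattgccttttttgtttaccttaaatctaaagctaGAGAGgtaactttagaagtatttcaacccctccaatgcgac

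Of the 36 genes, 8 (22.2%) had a bound promoter in the thresholded list, against 20.6% of all protein-coding genes. They were lab among the homeotic genes, bcd among the maternal and gap genes, oc and ems among the terminal and head genes, opa and slp1 among the pair-rule genes, and wg and gsb among the segment polarity genes. The gene lab has 2 such regions, at its outer and its inner TSS, so there were 9 promoter regions in all. Their median signal was 121.4, against 185.0 for the 2388 thresholded regions within 500 bp of a TSS. In the top regions the count was 11 in replicate 1 (21.1% of all genes), 2 in replicate 2 (15.9%) and 8 in replicate 3 (20.9%). The share of the 36 genes was thus 19.4% ± 12.7 (SD, n = 3) beside 19.3% ± 2.95 (SD, n = 3) of all genes. The spread over replicates was wider for these genes, but in so small a set each gene moves the share more. The part of set size in this spread was not tested. Only bcd kept its call under all 3 replicates. When every replicate had to back the region, and likewise in the stronger part of the thresholded list by signal, the count was 1, beside 11.3% and 11.4% of all genes.

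The promoter of bcd (FBgn0000166, 3R:6755842-6759466, minus strand), which encodes the homeodomain protein that patterns the anterior of the embryo, had by far the strongest region of these promoters. It lay at 3R:6759555-6759824 with its summit at 6759678, 212 bp upstream of the TSS and in intergenic DNA. Its signal was 545.0 and its rank 361, and it ranked 477, 483 and 248 in replicates 1, 2 and 3. All 3 replicates thus put it among their strongest 500 regions.

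The promoter of wg (FBgn0284084, 2L:7307159-7316265, plus strand), which encodes a Wnt signal, had a region at 2L:7306837-7307246, 117 bp upstream of its TSS, with a signal of 172.5 and rank 2658. It ranked 1759 in replicate 1 and 2692 in replicate 3, and replicate 2 had no summit inside it among its 30000 regions. At oc (FBgn0004102, X:8630159-8650681, minus strand), the orthodenticle gene of head patterning, the region X:8650670-8651079 lay 194 bp upstream of a TSS with a signal of 146.4 and rank 3338. Replicate 1 placed it at rank 1613 and replicate 3 at rank 5029, just inside its top regions, while replicate 2 again had no summit in it. The head gap gene ems (FBgn0000576, 3R:13901853-13904620, plus strand) had the region 3R:13901523-13901932, 125 bp upstream, with a signal of 140.3 and rank 3496. Its ranks were 2734 in replicate 1 and 4500 in replicate 3, with no summit in replicate 2.

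At lab (FBgn0002522, 3R:6661427-6678590, minus strand), the homeotic gene of the most anterior segments, the outer promoter region at 3R:6678505-6678914 lay 120 bp upstream of the outer TSS with a signal of 121.4 and rank 4267. It ranked 3572 in replicate 1 and 2698 in replicate 3, and was missing from replicate 2. The second region, at 3R:6662880-6663289, lay in an intron 369 bp downstream of the inner TSS with a signal of 120.1 and rank 4331, and ranked 4449, 8069 and 4495 in replicates 1, 2 and 3. The pair-rule gene opa (FBgn0003002, 3R:4852813-4869979, plus strand), which encodes a zinc finger protein of the Zic family, had the region 3R:4852511-4852920, 97 bp upstream, with a signal of 114.9 and rank 4564. It ranked 5773 in replicate 1 and 3380 in replicate 3 and was missing from replicate 2.

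The forkhead gene slp1 (FBgn0003430, 2L:3825675-3827099, plus strand) had the region 2L:3825463-3825872, 7 bp upstream of its TSS, with a signal of 108.5 and rank 4897. It ranked 3541 in replicate 1 and 6337 in replicate 3, and replicate 2 had no summit in it. The region of gsb (FBgn0001148, 2R:25061964-25064643, plus strand), a paired-domain gene, lay at 2R:25061686-25062095, 73 bp upstream, with a signal of 106.5 and rank 5024. It ranked 4643 in replicate 1 and 5979 in replicate 3 and was missing from replicate 2. This rank lies 11 places from the end of the thresholded list, and the strongest promoter region outside it, that of the head gene btd, had a signal of 100.3 and rank 5419 in the pooled list. By distance, the farthest bound summit was the one of lab at 369 bp, and the nearest summit beyond 500 bp of a gene without a bound promoter was one of Abd-B at 1486 bp. The count was therefore 8 also with limits of 250 and 1000 bp. All 8 were genes with no TSS of another gene within 1000 bp, but so were 32 genes of the whole set, so this does not mark out the bound ones.

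Replicate 2 was the library that stood apart at these promoters. It backed 1 of the 9 promoter regions (11.1%), against 64.6% of all thresholded promoter regions, while replicate 1 backed 8 and replicate 3 backed 7. No summit of replicate 2 lay inside 7 of the 9, against 23.3% of all thresholded promoter regions. Among regions more than 500 bp from a TSS, replicate 2 backed 63.2% of the 76 of these genes, against 73.9% of all 2647, and it lacked a summit in 13.2% of either. The top regions of replicate 2 held the promoters of bcd and of Antp, the latter at rank 3583.

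The full lists of 30000 regions reach further down and differ from the thresholded list. In the pooled list a promoter region was present for 33 of the 36 genes (91.7%), against 52.3% of all genes. The counts were 33 (91.7%) in replicate 1, 8 (22.2%) in replicate 2 and 33 (91.7%) in replicate 3. The shares of all genes were 52.5%, 34.1% and 54.4%. These genes were thus above the share of all genes in replicates 1 and 3 and below it in replicate 2. The 8 in replicate 2 were lab, Antp, bcd, tll, oc, run, odd and en, and 7 of them had a promoter region in all 3 lists. Those of replicate 2 ranked between 483 for bcd and 21765 for tll. These lists include what the deposited files call background, so a place in them is a weak statement. In the pooled list the median rank of the promoter region was 9094 over the 33 genes, against 6945.5 over the 7300 genes with one. Of the 28 genes without a bound promoter, 25 had such a region in the pooled list, at ranks from 5419 for btd to 28857 for ftz.

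**Figure D1:**
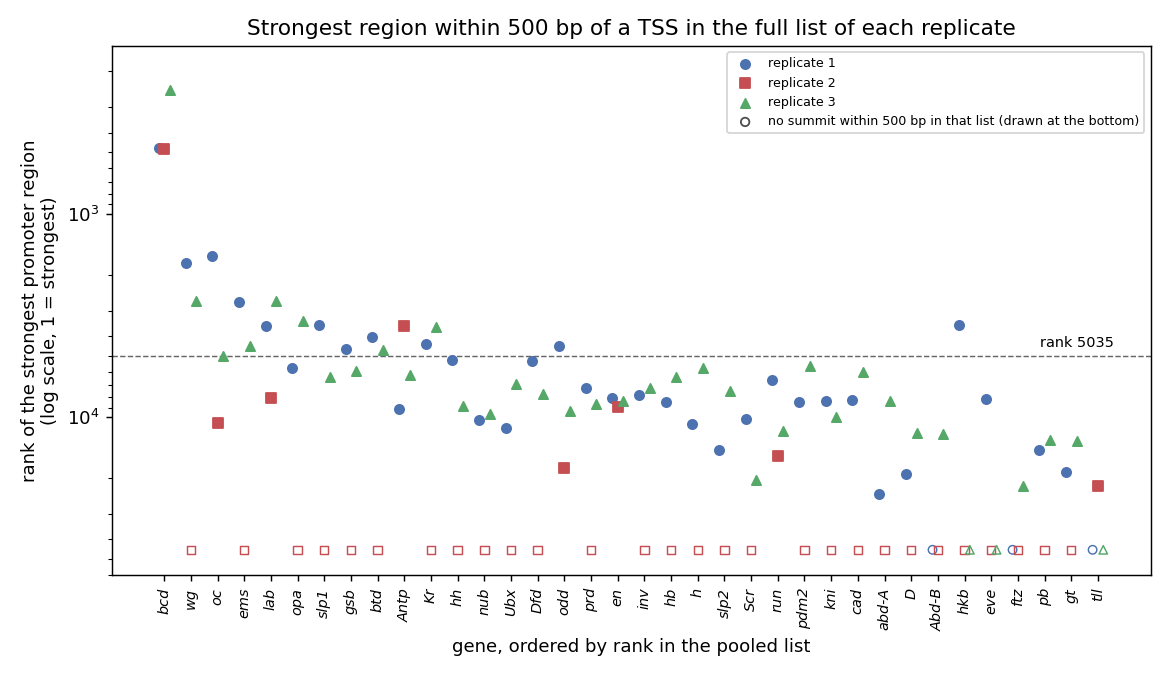
Rank of the strongest region within 500 bp of a TSS in the full list of each replicate (log scale, rank 1 at the top), by gene, for the 36 segmentation and homeotic genes in the order of their rank in the pooled list; open symbols at the bottom mark genes with no such region in that replicate, and the dashed line is rank 5035. The 3 symbols of bcd stand at ranks 248 to 483, and most squares of replicate 2 are open.

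GC content of the promoters differs between these genes and others and is given beside the replicate values. The 100 bp to either side of the outermost TSS had a median GC content of 51.0% over the 36 genes (28.4 to 60.7%), against 41.3% over all protein-coding genes. The summit windows of the 9 promoter regions had a mean GC content of 50.1%, against 37.3% for all promoter regions. In a look made after the values were seen, genes were split at the median of the 36. Of the 1722 genes at or above it, 50.9%, 42.5% and 52.6% had a promoter region in the full lists of replicates 1, 2 and 3. Below it, 52.8%, 32.9% and 54.7% had one. Of the 18 segmentation and homeotic genes in the upper class, 17, 5 and 17 had one, and of the 18 in the lower class 16, 3 and 16. In the top regions of replicate 2, by contrast, 14.5% of all genes in the upper class and 16.1% in the lower class had one. The part of GC content in the replicate 2 values was not tested.

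Regions inside introns were found in 8 of the 36 genes (22.2%), against 9.10% of all genes. They were lab with 5, pb with 2, Antp with 8, Ubx with 2, Abd-B with 2, and cad, inv and wg with 1 each. The count was 8 in the top regions of each of the replicates, beside 8.83%, 9.60% and 9.10% of all genes in replicates 1, 2 and 3. In all 3 the genes lab, pb, Antp, Ubx, Abd-B and wg were among them. The other 2 were cad and opa in replicate 1, Scr and inv in replicate 2, and cad and inv in replicate 3. These genes are long: the median length was 5718 bp and the median intron length per gene 2210.5 bp, against 2164.5 and 253.0 bp over all genes. Per length of intron the difference was smaller, with 22 regions in 0.454 Mb, or 4.84 per 100 kb, against 3.79 per 100 kb over the introns of all protein-coding genes. In the stronger part of the thresholded list only Antp remained, and 5 genes remained when all 3 replicates had to back the region.

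Inside the gene or within 20 kb, 32 of the 36 genes had a region, against 79.4% of all genes. The top regions gave 33, 30 and 33 genes in replicates 1, 2 and 3, beside 78.6%, 81.5% and 79.0% of all genes. The 4 genes with none in the thresholded list were the gap genes Kr, gt and nub and the terminal gene tll. The genes had 112 regions in all, of which 12 lay near 2 or more of them, and 11 genes had 5 or more. Per gene the median was 3 regions, against 2 over all genes. The windows held 6.05 regions per 100 kb, against 3.95 in the windows of all protein-coding genes built the same way. For regions more than 500 bp from any TSS the values were 4.11 per 100 kb and, over the chromosome arms, 1.98 per 100 kb.

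By place, 9 of the 112 regions were at promoters of the 36 genes, 27 at promoters of other genes, 21 in introns of the 36 genes, 44 in intergenic DNA, 9 inside another gene, 1 in a 3' UTR and 1 in a coding exon. Thus 76 (67.9%) lay more than 500 bp from any TSS, against 52.6% of all thresholded regions. The nearest coding TSS belonged to one of the 36 genes for 65 of the 112, and the others lay nearer to a gene outside the set. The median signal was 158.3, against 179.2 over the whole list, and 4 of the 112 (3.57%) were among the strongest 500, against 9.93%. All 3 replicates backed 57 of them (50.9%), against 55.9% of all. Replicates 1, 2 and 3 backed 85.7%, 59.8% and 90.2%, against 84.9%, 69.5% and 88.4%.

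**Figure D2:**
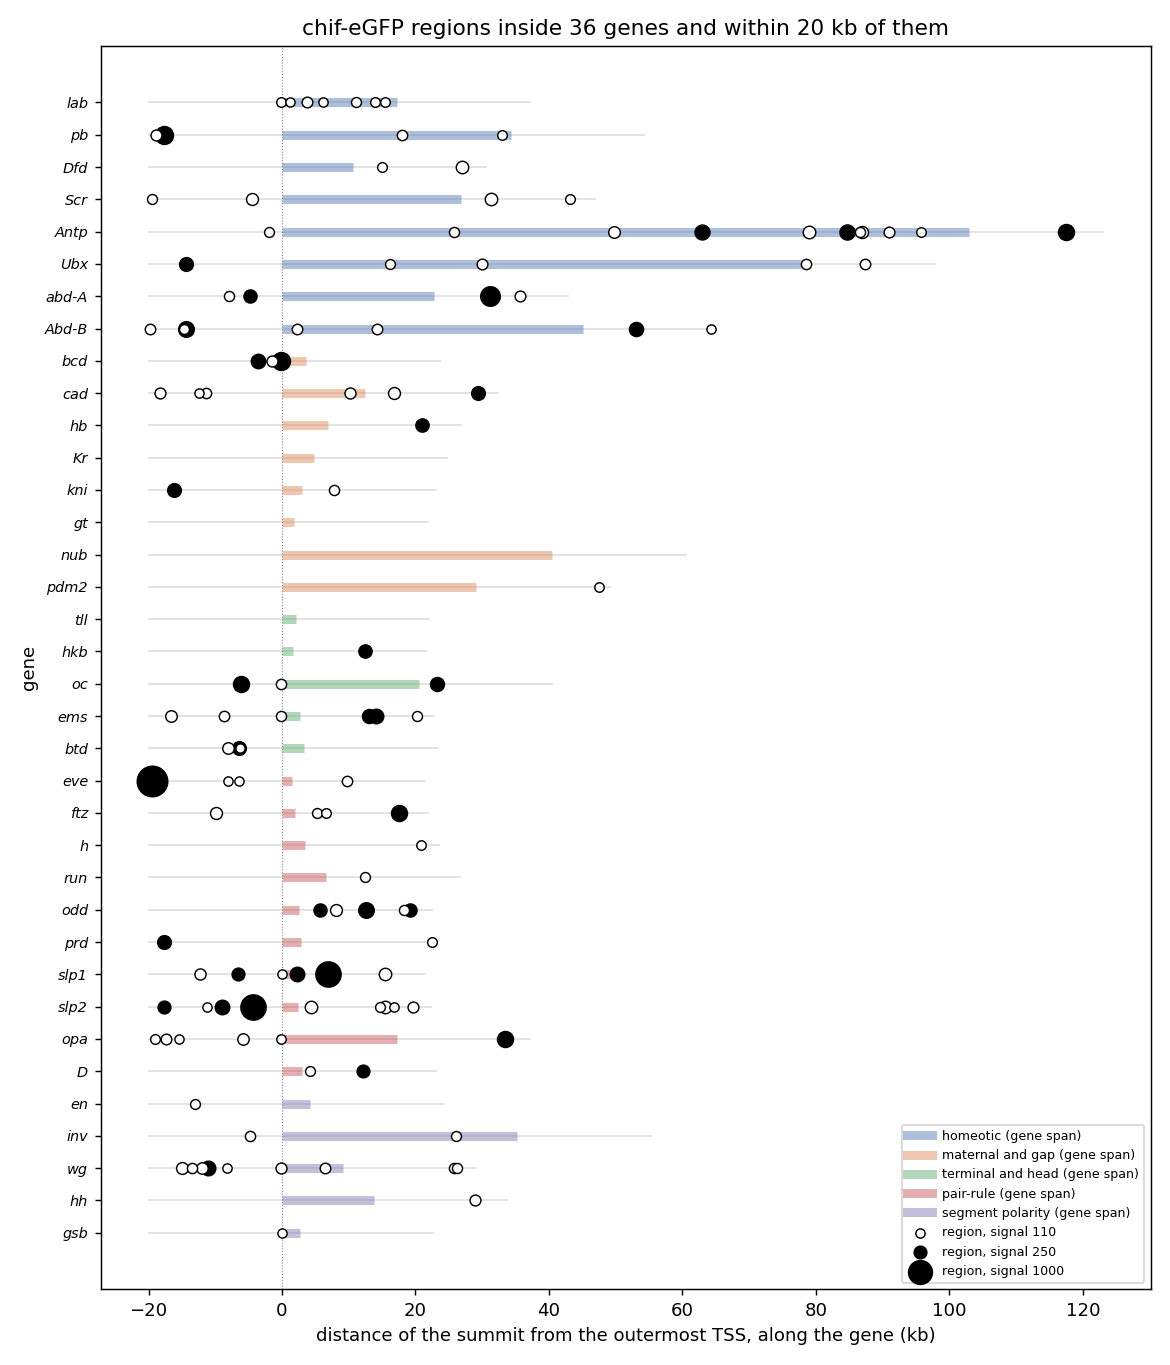
Thresholded regions inside the 36 genes and within 20 kb of them, drawn at the distance in kb of the summit from the outermost TSS along the direction of the gene, 1 row per gene; bars are gene spans coloured by role, circle area grows with signal, and filled circles have a signal of 250 or more. Rows of Antp, wg and slp2 hold the most circles, and those of Kr, gt, nub and tll hold none.

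The homeotic genes all had a region within 20 kb, 8 of 8 (79.4% of all genes), and 5 of them one in an intron (9.10%), while lab alone had a bound promoter (20.6%). Their 42 regions had a median signal of 153.7, and 21 were backed by all 3 replicates. In lab all but 1 of its 7 regions lay inside the gene: 2 were those at the promoters, 4 more were intronic and 1 fell in a coding exon. The strongest, in an intron 3752 bp downstream of a TSS, had a signal of 161.2 and ranks of 2895, 2130 and 3811 in replicates 1, 2 and 3. The other intronic ones had signals of 133.1, 123.5 and 110.2 and the exonic one 107.1, so that the gene was covered by many weak regions rather than by a strong one.

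At pb (FBgn0051481, 3R:6707800-6742063, minus strand), which specifies mouthparts, there were 4 regions. The strongest was the one at the bcd promoter, 17615 bp upstream, with a signal of 545.0, and its neighbour 18870 bp upstream had 172.8 and ranks of 4145, 2925 and 1876 in replicates 1, 2 and 3. Both lie nearer to bcd. The intronic region 17997 bp downstream of the pb TSS had a signal of 148.1 and ranks of 3866, 2949 and 2644. The other intronic region, 33014 bp downstream, had a signal of 120.8 and ranked 5355 in replicate 1 and 3054 in replicate 3, with no summit in replicate 2.

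The head gene Dfd had 2 regions downstream of it and Scr, the gene of the labial and prothoracic segments, had 4, with none inside either gene. They share the pair of regions between them, of signals 236.0 and 125.2. The stronger of these ranked 1254 in replicate 1, 4760 in replicate 2 and 1691 in replicate 3. Scr also had a region 4515 bp upstream, of signal 214.0, that ranked 1101 and 2613 in replicates 1 and 3 but 21287 in replicate 2. Its 4th region, of signal 133.5, lay 19536 bp upstream, beyond the pair-rule gene ftz.

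Antp (FBgn0260642, 3R:6896253-6999228, minus strand), the homeotic gene of the thorax, had 11 regions, more than any other of the 36 genes, over its 102976 bp. The strongest intronic region, at 3R:6914460-6914643 with its summit at 6914558, had a signal of 373.0 and ranked 752, 938 and 744 in replicates 1, 2 and 3. The next, at 3R:6936224-6936442 and 3476 bp upstream of an inner TSS, had a signal of 361.0 and ranked 691, 1620 and 771. All 3 replicates placed both well inside their top regions. Further intronic regions had signals of 241.8 (ranks 1336, 1376 and 2296), 217.5 (1506, 1606 and 1981) and 201.2 (2455, 1899 and 2176). Weaker ones had signals of 139.9, 138.4 and 119.2. The one of signal 139.9 lies 200 bp from its stronger neighbour and shares its replicate regions in replicates 1 and 2, so the pair may be a single site.

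A region in the 3' UTR of Antp, of signal 163.4, ranked 2213 in replicate 1, 8238 in replicate 2 and 2778 in replicate 3. Upstream of the outer TSS, by 1880 bp, a region of signal 130.3 ranked 3726 in replicate 1 and 5548 in replicate 3 and was missing from replicate 2. Downstream, between ftz and Antp and inside the noncoding gene lncRNA:CR44931, the region 3R:6881678-6881912 had a signal of 423.9 and ranked 730, 883 and 478. It lay 14431 bp from the end of Antp and 15578 bp from that of ftz. At the Antp promoter itself the pooled list had a region of rank 6156, below the threshold, with ranks of 9093, 3583 and 6245 in the replicates, and there replicate 2 stood highest. The coding gene CG46458 has a TSS within 1 kb of one of the 3 TSSs of Antp.

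**Figure D3:**
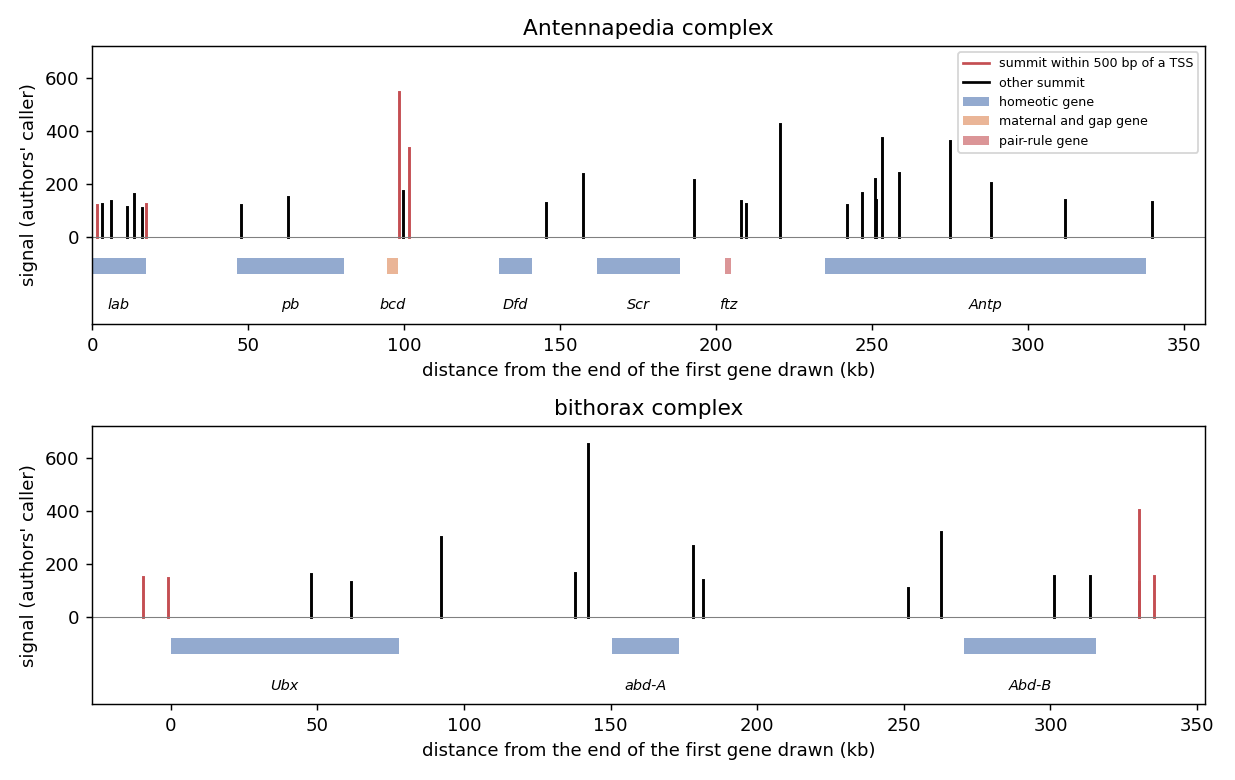
Signal given by the authors' caller (linear scale) at thresholded summits inside the segmentation and homeotic genes or within 20 kb of them. The upper panel shows the Antennapedia complex and the lower panel the bithorax complex. The horizontal axis is the distance in kb from the end of the first gene drawn. Summits farther than 20 kb from these genes were not drawn, so a blank stretch there does not show that none was called. Red lines are summits within 500 bp of any TSS, black lines all others, and bars below are gene spans. The highest lines are 545.0 at bcd and 653.9 downstream of abd-A, and the lines inside Antp reach 373.0.

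In the bithorax complex only regions inside Ubx, abd-A and Abd-B or within 20 kb of them were examined. The strongest of these lay outside the homeotic genes themselves. The homeotic gene Ubx, which specifies the posterior thorax and the start of the abdomen, had 5 regions. The strongest, at 3R:16748668-16748817 with its summit at 16748742, lay 14316 bp upstream inside the noncoding gene lncRNA:bxd, whose stretch of DNA is known for the Polycomb response element and enhancers that control Ubx. Its signal was 300.9 and its rank 1143, and it ranked 1059, 2744 and 878 in replicates 1, 2 and 3. Its 2 intronic regions had signals of 162.8 and 130.5. The other 2 lay downstream at the promoters of modSP and CG10324.

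The gene abd-A (FBgn0000014, 3R:16807214-16830049, minus strand), which specifies the middle abdomen, had 4 regions, none inside it. Downstream by 8332 bp, at 3R:16798770-16799041 with its summit at 16798882, stood the strongest region within 20 kb of the bithorax genes. Its signal was 653.9 and its rank 241. It ranked 217, 677 and 178 in replicates 1, 2 and 3, and it was intergenic, 1718 bp from the TSS of lncRNA:CR45750. Farther downstream, 12774 bp from the gene, a region of signal 165.9 ranked 3252, 4913 and 2457. Upstream by 4777 bp, inside lncRNA:iab8, a region of signal 268.7 ranked 1377, 2129 and 1105. A region of signal 138.5 lay 7979 bp upstream and ranked 4945 in replicate 1, 26496 in replicate 2 and 2687 in replicate 3.

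Abd-B, the gene of the posterior abdomen, had 7 regions, of which 2 were intronic, with signals of 153.9 and 153.6. The strongest lay 14411 bp upstream at the promoter of CG18622, with a signal of 403.3 and ranks of 924, 406 and 861. A weaker region of signal 131.9 overlapped it and shared its replicate regions in replicates 2 and 3. Downstream of Abd-B, inside lncRNA:iab8, a region of signal 319.2 ranked 878 in replicate 1, 5319 in replicate 2 and 695 in replicate 3. Its promoters had no region within 500 bp in the full lists of replicates 1 and 2.

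Among the maternal and gap genes 5 of 8 had a region within 20 kb, bcd alone had a bound promoter and cad alone an intronic region. The 13 regions had a median signal of 176.3, and 9 were backed by all 3 replicates. Besides its promoter region, bcd had one 1467 bp upstream of signal 172.8 and one 3622 bp upstream of signal 335.6. The latter stood at the promoter of Ama, 316 bp upstream of a TSS of that gene, and ranked 886, 761 and 1231 in replicates 1, 2 and 3. The homeobox gene cad, which patterns the posterior, had 6 regions. Its strongest, of signal 295.6, lay 16930 bp downstream inside CG9328, and its intronic one, of signal 176.3, ranked 1617 in replicate 1, 11226 in replicate 2 and 2672 in replicate 3.

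The gap gene hb, a zinc finger gene, had 1 region of signal 277.1, which lay 14190 bp downstream at the promoter of CG8043. For kni, a nuclear receptor gene, there were 2. The stronger one, 16234 bp upstream and of signal 295.5, ranked 1245 in replicate 1 and 653 in replicate 3 but had no summit in replicate 2. The POU gene pdm2 had 1, of signal 115.9, at the promoter of spict. For Kr, gt and nub the nearest thresholded summits lay 43465, 32238 and 85906 bp from a TSS. The promoter region of Kr was nevertheless among the top regions of replicates 1 and 3, at ranks 4386 and 3613, and was not in the list of replicate 2, and its pooled rank was 6402.

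Of the terminal and head genes, 4 of 5 had a region within 20 kb, and none had one in an intron. Their 13 regions had the highest median signal of the 5 roles, 196.9, and 8 were backed by all 3 replicates. At oc, the strongest region lay 6068 bp upstream at X:8656639-8656874, with a signal of 424.0 and ranks of 981, 531 and 499 in replicates 1, 2 and 3. It lay in intergenic DNA, and oc had the nearest TSS. The 3rd region of oc, 2749 bp downstream of the gene, had a signal of 310.4 and ranked 1127, 1108 and 1082. Replicate 2 thus listed both regions of oc away from the promoter at ranks like those of the others. It had no summit inside the thresholded promoter region, and its own region within 500 bp of a TSS of oc ranked 10715.

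The gene ems had 6 regions. The strongest 2 lay 11251 and 10299 bp downstream, with signals of 340.8 (ranks 1564, 881 and 748) and 314.2 (ranks 1075, 1501 and 980). The other 3 away from the promoter had signals of 196.9, 151.0 and 135.2 and ranks between 1893 and 5588 in the replicates. The head gap gene btd had 3 regions, 2 of which lie side by side just upstream of lncRNA:CR42657. The stronger of them, of signal 296.1, ranked 1056, 1749 and 1142. The terminal gene hkb had 1, of signal 274.8, at the promoter of CG9776. Its own promoter ranked 3521 in replicate 1 and was in the list of neither other replicate. The terminal gene tll had its nearest thresholded summit 34817 bp away.

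All 10 pair-rule genes had a region within 20 kb (79.4% of all genes), and none had one in an intron. Their 35 regions had a median signal of 168.6, and 16 (45.7%) were backed by all 3 replicates. The strongest region near any of the 36 genes, of signal 1672 and rank 27, lay 19406 bp upstream of eve (FBgn0000606, 2R:9979319-9980795, plus strand) and ranked 29, 19 and 33 in replicates 1, 2 and 3. It stands at the promoter of Pal1, 165 bp upstream of a TSS of that gene, at 2R:9959704-9960130. The other regions of eve, a homeobox gene, were weak and also at promoters of neighbours. A region of signal 149.2 at TER94 ranked 2066 in replicate 1 and 4675 in replicate 3. Those of signals 109.1, at CG12134, and 106.7, at asRNA:CR46453, were backed by replicate 3 alone. Replicate 2 had no summit in any of these 3, and of the 3 full replicate lists only that of replicate 1 held a promoter region of eve, at rank 8191.

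The neighbours slp1 and slp2 (FBgn0004567, 2L:3836840-3839185, plus strand), forkhead genes with overlapping roles, shared the strongest intergenic region of the set. It lay at 2L:3832343-3832690 with its summit at 3832523, 5424 bp downstream of slp1 and 4317 bp upstream of slp2. Its signal was 1127 and its rank 64, and it ranked 64, 65 and 80 in replicates 1, 2 and 3. Another shared region, 807 bp downstream of slp1, had a signal of 340.5 and ranked 756, 967 and 1019. A 3rd, 6549 bp upstream of slp1, had a signal of 253.2 and ranked 1325, 1918 and 1935. A 4th, 1940 bp downstream of slp2, had a signal of 235.6 and ranked 1948, 1926 and 1675.

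Farther upstream of slp1, a region of signal 180.8 at the promoter of CG3407 ranked 1589 and 3201 in replicates 1 and 3 and 9380 in replicate 2. Farther downstream of slp2 there were 4 more, of signals 238.4, 168.6, 129.3 and 110.3. The strongest of these ranked 2193, 1807 and 1306 and stood at the start of lncRNA:CR45451. All 4 regions shared by the pair other than the slp1 promoter were backed by all 3 replicates, in contrast to the promoter of slp1. The promoter of slp2 ranked 14614 in replicate 1 and 7488 in replicate 3.

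The gene opa had 6 regions. Its strongest, at 3R:4886178-4886416 and 16304 bp downstream, had a signal of 424.7 and ranked 608, 624 and 668 in replicates 1, 2 and 3. The nearest gene by TSS to this intergenic summit was laf, at 7750 bp. Upstream of opa by 5827 bp a region of signal 191.5 ranked 2676, 2564 and 1921. Those at 17318, 19044 and 15426 bp upstream had signals of 160.7, 125.6 and 107.6. Of these, replicate 2 had a summit in the second alone, at rank 15662.

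The homeobox gene ftz (FBgn0001077, 3R:6864324-6866244, plus strand), which lies within the Antennapedia complex, had 4 regions, none within 5 kb of its TSS. Besides the region of signal 423.9 shared with Antp, they had signals of 214.0, 133.5 and 121.6. In replicate 2 these ranked 21287, 5366 and 15913, against 1101, 3548 and 4017 in replicate 1 and 2613, 4890 and 2810 in replicate 3. The zinc finger gene odd had 5 regions, all downstream. The strongest, at 2L:3594106-3594284 and 10013 bp away, had a signal of 396.1 and ranked 666, 630 and 985. Those of signals 268.9, 267.5 and 209.9 were also backed by all 3 replicates, and the last, of signal 139.4, by replicates 1 and 3. The one of signal 268.9 stood at the promoter of lncRNA:TS2, 36 bp upstream of a TSS of that gene.

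The remaining pair-rule genes had 1 or 2 regions each. The paired-domain gene prd had one of signal 298.4 at the promoter of ThrRS and one of 122.9 at that of Rab3-GAP. The Sox gene D had one of signal 250, which lay 9100 bp downstream and ranked 1514, 1707 and 2109, and one of 129.0. The repressor gene h had 1 of signal 117.1, and run, a gene of the Runx family, had 1 of signal 131.7.

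All 5 segment polarity genes had a region within 20 kb, but these had the lowest median signal of the 5 roles, 143.4 over 14 regions, of which 6 were backed by all 3 replicates. The gene wg had 9 of them. The strongest, at 2L:7295990-7296121 and 11066 bp upstream, had a signal of 346.3 and ranked 1067, 1276 and 714 in replicates 1, 2 and 3. Others stood 12000, 13524 and 15012 bp upstream, with signals of 195.3, 143.2 and 210.1, and all 3 replicates backed each of them. With the region of signal 111.8 at 8212 bp, this made 5 regions on the upstream side between 8 and 16 kb from wg. The one of signal 210.1 lay slightly nearer to a TSS of Wnt4, at 14976 bp, than to that of wg. The intronic region of wg, of signal 155.9, ranked 4872, 2034 and 2756. Those of signals 142.5 and 137.3 downstream lay beside Wnt6.

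The homeobox gene en had 1 region, of signal 130.2 and 13071 bp upstream, in which replicate 2 had no summit. Its neighbour and relative inv had 2, of signals 143.6, upstream, and 132.7, in an intron. The promoter of en was in the full list of each replicate and ranked 8065, 8955 and 8325, below the threshold in all 3. The hedgehog gene hh had a region of signal 168.9 downstream, at the promoter of Cow. It was the only 1 of the 112 in which neither replicate 1 nor replicate 3 had a summit, and replicate 2 ranked it 2316. The promoter region of gsb was the only region of that gene.

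Motif shares were read in windows of 100 bp to either side of the summits, on both strands, beside all thresholded regions of the same class. At the 9 promoter regions GAGAG was present in 7 (77.8%), against 21.1% of all 2388 promoter regions, and GCCAT in 4 (44.4%), against 27.6%. None of the 9 held TATCGATA, GGTCACAC or TAATTA, which were present in 7.25%, 5.24% and 15.7% of all promoter regions. With 9 windows, a single region moves a share by 11.1 percentage points. The 9 windows had a mean GC content of 50.1%, against 37.3%, and its part in these shares was not tested. Around the outermost TSS, GAGAG was found at 20 of the 36 genes (55.6%), against 22.5% of all genes and 39.6% of the genes at or above the median GC content of the 36. It was found at 3 of the 8 genes with a bound promoter and at 17 of the other 28 genes.

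Among the 76 regions more than 500 bp from a TSS, GCCAT was present in 29 (38.2%), against 26.7% of all 2647 such regions. The shares were 23.7% against 14.9% in windows of 50 bp to either side and 56.6% against 51.2% in windows of 200 bp. GAGAG was present in 23.7%, against 23.1%. TTTATG was present in 18.4% against 23.3%, TAATTA in 13.2% against 15.7%, TAATCC in 5.26% against 6.23%, CAGGTAG in 2.63% against 1.21% and GGTCACAC in 1.32% against 0.567%. TATCGATA was present in none, against 0.453%. The single window with GGTCACAC was the one between slp1 and slp2 printed above, and the CAGGTAG downstream of abd-A was in 1 of only 2 windows with that motif. The mean GC content of these windows was 37.7%, against 35.96%, and its part in the shares was not tested.

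**Figure D4:**
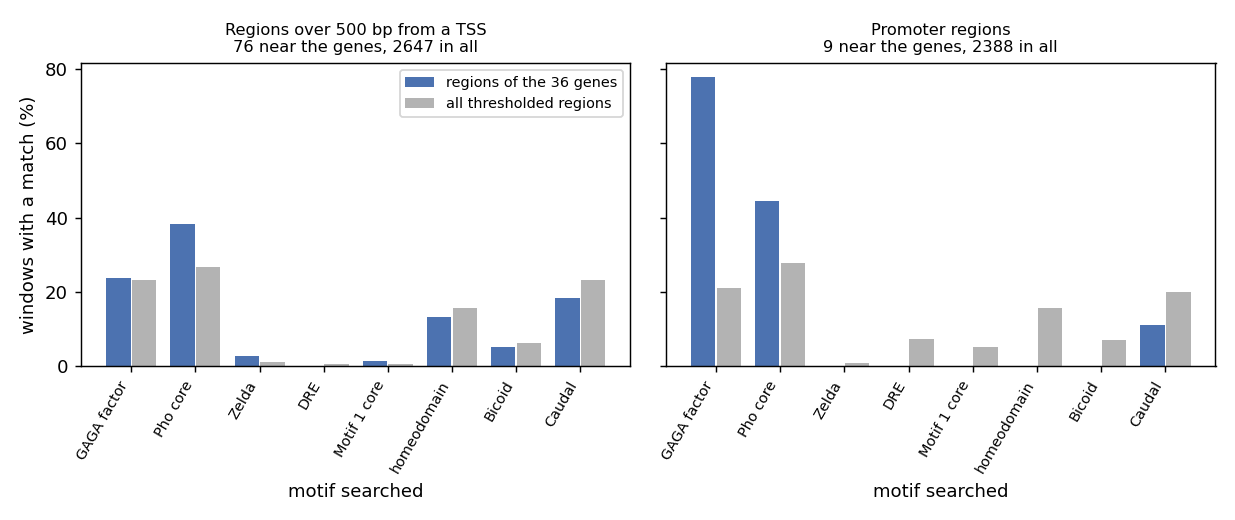
Share of windows of 100 bp to either side of the summits with at least 1 exact match to each motif (percent), for regions of the 36 genes and for all thresholded regions of the same class; the left panel holds regions over 500 bp from a TSS and the right panel promoter regions. The GAGA factor bar stands at 77.8% over 9 promoter regions beside 21.1%, and the Pho core bar at 38.2% over 76 other regions beside 26.7%.

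Other gene lists of development were not far from the segmentation and homeotic genes in the share of bound promoters. Of 41 genes of other developmental signalling pathways 11 (26.8%) had a bound promoter, of 24 mesoderm and muscle genes 6 (25.0%) and of 25 neural and glial genes 7 (28.0%). The share over all genes was 20.6%. Intronic regions were found in 20 of the 41 (48.8%), 8 of the 24 (33.3%) and 7 of the 25 (28.0%), against 22.2% of the 36 and 9.10% of all genes. Regions within 20 kb were found for 40, 20 and 21 of them, beside 79.4% of all genes. Replicate 2 backed the promoter region of 6 of the 11, 3 of the 6 and 3 of the 7, against 1 of 8 among the segmentation and homeotic genes.

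The genes that act with this set were counted as well, beside the 20.6% of all genes with a bound promoter. Of 13 maternal and early genes, exu and nos had a bound promoter, and replicate 2 backed neither. Of 9 cofactors, the corepressor gene gro had a region of signal 742.7 (rank 188, and 197, 154 and 207 in replicates 1, 2 and 3), and lilli one of 228.8. Of 24 relatives and further patterning genes 8 were bound, led by bowl, the relative of odd, with a signal of 834.0 and ranks of 116, 275 and 122. The others were fkh, Poxm, cnc, toy, mid, Dr and ey. Of 14 genes of Wingless and Hedgehog signalling 4 were bound: the kinase gene sgg with a signal of 852.4 and ranks of 135, 159 and 130, and nkd, Axn and smo. The signals of gro, bowl and sgg were above that of bcd, the highest among the promoters of the 36 genes.

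Polycomb and Trithorax genes, whose products keep homeotic genes silent or active, had a bound promoter in 14 of 25 cases (56.0%). The strongest was at ph-p, a subunit gene of Polycomb repressive complex 1, with a signal of 2894, rank 4 and ranks of 5, 5 and 4 in replicates 1, 2 and 3. Its summit, however, lay upstream of the TSS and only just inside the limit of 500 bp. The summits at ph-p, skd and ph-d were more than 250 bp from the TSS, and those of the other bound genes of this list were nearer. The chromatin remodeller gene brm followed with 408.3 and Trl, which encodes the GAGA factor, with 355.7. Su(z)12, a gene of Polycomb repressive complex 2, had 285.7, and mor, a partner of brm, 278.1. Replicate 2 backed 9 of the 14. The share over all protein-coding genes was 20.6%, and the difference was not tested.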

How the data were processed

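Chromatin immunoprecipitation with sequencing was done on 3 biological replicates of 1 group. Per the file headers and deposited notes, the authors called 1 list of 30000 regions per replicate and 1 on the pooled reads, each against the same control file, and derived the 5035 thresholded regions from them with the irreproducible discovery rate (IDR). The values used were the deposited signal per region, whose scale is not stated, and the offset of the summit in bp. The deposited −log10 of a q-value reaches a ceiling in each list and was not used. Neither aligner nor peak caller was given in the sources used here. The lists on dm3 were not used and the depth is unknown.

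Genes came from the Ensembl annotation, release 115, of BDGP6.54, whose arm lengths the regions fit, and bases from the RefSeq Release 6 genome. The symbol h stands there as hry, 3 symbols of the other lists were found under another name, and fas was not found. Counts, ranks and motif matches were computed with Python 3.11.15 and numpy 2.4.6, checked on simulated positions. The genes, the other lists and the motifs were chosen with earlier results of these data known. All 36 genes were accounted for. Full values were given for genes with a bound promoter and for the 10 whose strongest region within 20 kb had the highest signal, and for the other lists counts and the strongest bound genes. Alternatives were other TSS distances, flanks, lists and windows, and leaving out each replicate.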

Additional observations from a re-analysis of the deposited data

How the results depend on the processing

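No paired analysis was possible because the samples form 1 group. Of 41 alternatives for the counts of genes and regions, 26 gave values within 1.5 times the reported count, and the other 15 gave lower ones. The count of 8 bound promoters was 1 in the stronger part of the list and with all 3 replicates backing, 2 in the top regions of replicate 2, and 1 to 5 when 1 replicate was left out: 1 without replicate 1, 5 without replicate 2 and 1 without replicate 3. It was 8 at 250 and 1000 bp. The count of 8 genes with an intronic region was 1 in the stronger part and 5 with all 3 replicates, and 6 to 7 with 1 replicate left out. The count of 32 genes within 20 kb ran from 22 (5 kb flank) to 33. Apart from the top regions of each replicate, shares of all genes under these alternatives are not given for introns or for 20 kb. The 112 regions became 45 in the stronger part, 57 with all 3 replicates, 59 to 88 with 1 replicate left out, 69 and 51 with flanks of 10 and 5 kb, and 65 when the nearest coding TSS had to be that of the gene set. The stronger part, the backing by 2 or 3 replicates and the shorter flanks leave fewer regions to count, while the top regions of a replicate are as many as in the thresholded list. Motif shares away from TSSs moved with the window, from 50 to 200 bp to either side: GAGAG from 13.2% to 39.5%, GCCAT from 23.7% to 56.6%, TTTATG from 9.21% to 31.6% and TAATTA from 6.58% to 25.0%. The unknown depth, the single control file and the absence of an untagged library from what was analysed limit every count, as do 3 replicates.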
